A study of Mus musculus with 8 samples.

Results

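The genes described here drive the cell through its division cycle: 44 genes for G1 cyclins and kinases, DNA replication, E2F and FoxM1 transcription factors and mitosis. They were chosen by symbol from the 24451 genes of a liver RNA sequencing table, and all 44 were found there. The livers came from 4 Brap LKO mice (Brap fl/fl with Albumin-Cre) and from 4 Brap F/F control mice (Brap fl/fl without Cre, labelled wild type). All were male C57BL/6 mice, 18 wk old and fasted for 6 h, and RNA was taken from the left lobe. Both groups carry the floxed Brap allele, whose exons 2 and 3 are removed by Cre. Albumin-Cre is driven by the promoter of a hepatocyte gene, and which other cells of the lobe keep Brap was not tested. The Cre transgene itself is present in the Brap LKO group only.

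Cells enter the cycle when D-type cyclins with CDK4 or CDK6, and then E-type cyclins with CDK2, inactivate the retinoblastoma protein and release E2F factors. E2F factors switch on the genes that license and copy DNA, among them the MCM helicase subunits, and a later wave of genes under FoxM1 and MuvB complexes carries out mitosis. Most hepatocytes of an adult liver rest outside the cycle, and they return to it after tissue loss. Many of them are polyploid, and the atypical repressors E2F7 and E2F8 take part in that.

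Reads on genes ran from 26280884 to 33313914 per liver, and the values below are normalized counts, that is reads divided by a size factor for each liver. The targeted gene, Brap, was counted at 3641 to 4203 in the Brap LKO livers and 3994 to 4410 in the Brap F/F livers, which does not check the labels, since exons outside the deleted part also give reads. The 10 hepatocyte markers examined had reads in both groups and summed to 2353000 to 3238000 normalized counts in Brap LKO livers and 2946000 to 4521000 in the Brap F/F livers. In bulk RNA of this kind, fewer dividing cells and less RNA per dividing cell cannot be told apart.

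The classes carry different letters in their promoters. Whether these letters bear on how the genes varied between livers was not tested. RefSeq windows on GRCm38.p6 (the build called mm10), from 250 bases before to 50 bases after the start of the gene, matched 35 of the 44 genes. They were searched on both strands for an E2F site (TTTCCCGC, TTTCGCGC, TTTGCCGC or TTTGGCGC), for the CHR element (TTTGAA), to which MuvB complexes bind, and for the CCAAT box (CCAAT), to which NF-Y binds. An E2F site was found in 6 of 11 S phase genes (54.5%) and in 1 of 16 mitotic genes (6.25%), where 2.6% of all 27025 genes with a window hold it. The CHR element was the other way round, in 1 of 11 S phase genes (9.09%) and 12 of 16 mitotic genes (75.0%), against 20.2% of all genes. The CCAAT box stood in 8 of 11 S phase and 14 of 16 mitotic genes, against 41.1% of all genes. A match is a run of letters and was not tested as a binding site.

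1 E2F site of each of the 6 S phase genes that hold any, and that of the G1 kinase gene Cdk2, are printed from 5′ to 3′ along the gene. Capitals mark the site shown, and Mcm3, Mcm6 and Mcm7 hold a further match that is not marked, which in Mcm3 lies within the lower-case letters at the end of the line. In Mcm5 and in the site of Mcm6 farther from its start, 2 matches on opposite strands overlap.
Mcm5 (chr8:75109336-75109387, + strand): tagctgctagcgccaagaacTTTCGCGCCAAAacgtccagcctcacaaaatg
Mcm6 (chr1:128359784-128359835, - strand): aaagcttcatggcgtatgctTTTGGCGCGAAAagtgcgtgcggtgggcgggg
Mcm7 (chr5:138171840-138171887, - strand): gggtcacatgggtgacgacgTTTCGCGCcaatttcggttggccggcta
Mcm3 (chr1:20820266-20820313, - strand): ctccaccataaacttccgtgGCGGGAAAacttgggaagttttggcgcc
Cdc6 (chr11:98907993-98908040, + strand): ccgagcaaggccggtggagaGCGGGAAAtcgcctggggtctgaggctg
Cdt1 (chr8:122568027-122568064, + strand): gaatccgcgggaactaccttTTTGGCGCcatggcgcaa
Cdk2 (chr10:128705164-128705211, - strand): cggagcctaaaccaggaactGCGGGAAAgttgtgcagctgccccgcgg

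The CHR elements of some of the 12 mitotic genes that hold any are printed in the same way, and the others are not shown. Capitals mark the element nearest to the start of each gene. Mki67 holds another within the lower-case letters before it.
Mki67 (chr7:135716452-135716497, - strand): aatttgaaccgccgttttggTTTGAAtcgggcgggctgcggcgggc
Cdc20 (chr4:118437336-118437381, - strand): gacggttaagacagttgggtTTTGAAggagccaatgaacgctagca
Cdk1 (chr10:69352902-69352947, - strand): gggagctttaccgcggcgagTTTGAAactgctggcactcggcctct
Ccnb2 (chr9:70421525-70421570, - strand): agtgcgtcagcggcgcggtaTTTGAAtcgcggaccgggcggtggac
Plk1 (chr7:122159445-122159484, + strand): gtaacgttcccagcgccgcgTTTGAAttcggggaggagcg

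**Figure D1:**
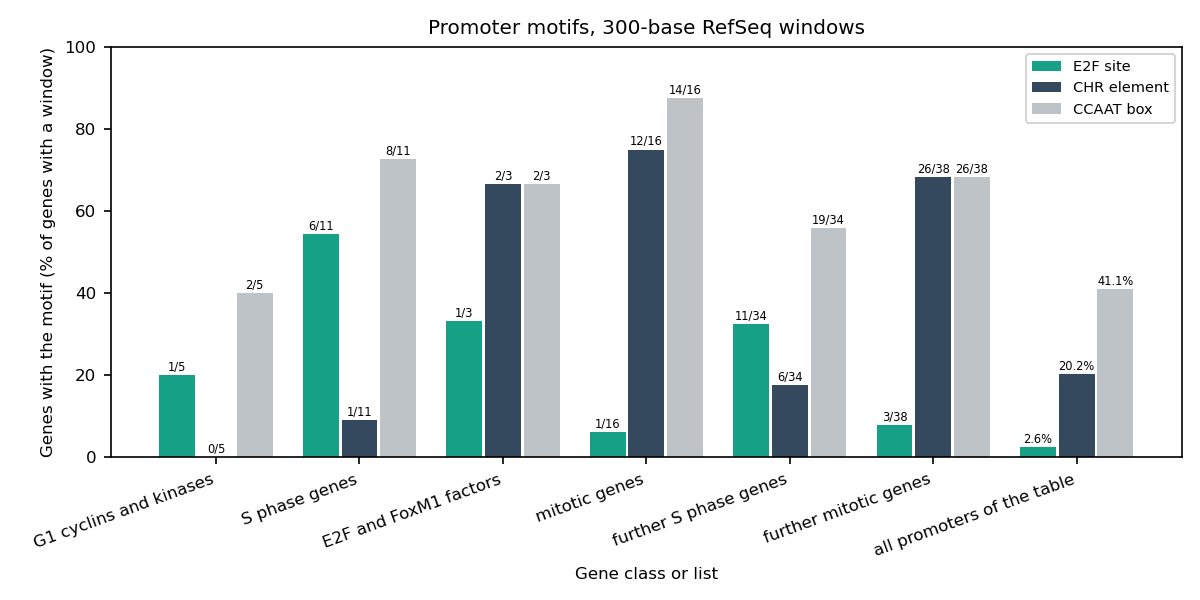
Share of genes (vertical axis, percent of genes with a RefSeq window) that hold an E2F site, a CHR element or a CCAAT box, for each class, for 2 lists of further pathway genes and for all genes, with the counts above the bars. E2F sites were most frequent in the S phase genes (6 of 11) and CHR elements in the mitotic genes (12 of 16).

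None (0) of the 44 genes differed between Brap LKO and Brap F/F livers when limma was run on log2(normalized count + 1) of the 15352 genes whose mean was 5 or more, with an adjusted p-value under 0.05 as the threshold. Of all genes tested, 0.769% did (0.664% higher and 0.104% lower). Of the members, 42 had counts high enough to be tested, and the mitotic genes Ccnb1 and Bub1 did not. At an unadjusted p-value under 0.05 there were 3 members (Ccnd2 higher, Cdk2 and E2f1 lower), where 15.8% of all genes tested passed it (9.23% higher and 6.59% lower). In these 3 members no Brap LKO liver overlapped a Brap F/F liver, which held for 9.87% of all genes tested. The count tests on the reads recovered from the table called 0 members with edgeR (0.795% of all genes) and 1 member with DESeq2, Ccnd2 (4.07% of all genes). At an unadjusted p under 0.05 there were 4 members with edgeR, where 2390 of the 15352 genes tested passed. With DESeq2 there were 5 members, where 2437 of all genes passed. Fold changes of low genes are understated on this scale. Each p-value measures a difference against the spread of livers within the groups, 4 per group. All 3 methods estimate that spread partly from other genes.

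By class, the median log2 fold change (Brap LKO minus Brap F/F) was 0.04 for the 8 G1 cyclins and kinases, -0.25 for the 12 S phase genes, 0.46 for the 4 factors and 0.20 for the 18 mitotic genes tested. The median of all genes tested was -0.01. Leaving out 1 liver moved the S phase median to as far as -0.445 when it was Brap F/F replicate 2 and to -0.0585 when it was Brap F/F replicate 1. The medians without 1 liver ran from 0.279 (without Brap F/F replicate 2) to 0.664 (without Brap F/F replicate 1) for the factors and from 0.0457 (without Brap LKO replicate 3) to 0.347 (without Brap LKO replicate 2) for the mitotic genes. The sign changed in 2 classes: after quantile normalization the medians of the G1 and mitotic genes were -0.03 and -0.02, and that of the G1 genes was also below 0 with the animal number series as a covariate (-0.12) and without Brap F/F replicate 3 (-0.04). Of the S phase genes 10 had values below 0 and 2 above, and of the mitotic genes 5 were below 0 and 13 above. The mean deviation of the S phase genes from their own means, on the log2 scale, lay between -0.16 and -0.03 in the 4 Brap LKO livers. It was 0.78, -0.37, -0.41 and 0.47 in Brap F/F replicates 1 to 4, so the controls lay on both sides of all Brap LKO livers. For the mitotic genes, the deviations were 0.05, -0.45, 0.37 and 0.32 in Brap LKO replicates 1 to 4 and 0.33, -0.26, -0.40 and 0.04 in Brap F/F replicates 1 to 4. Brap LKO replicate 2 was the lowest of all livers in this class, and the groups overlapped.

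**Figure D2:**
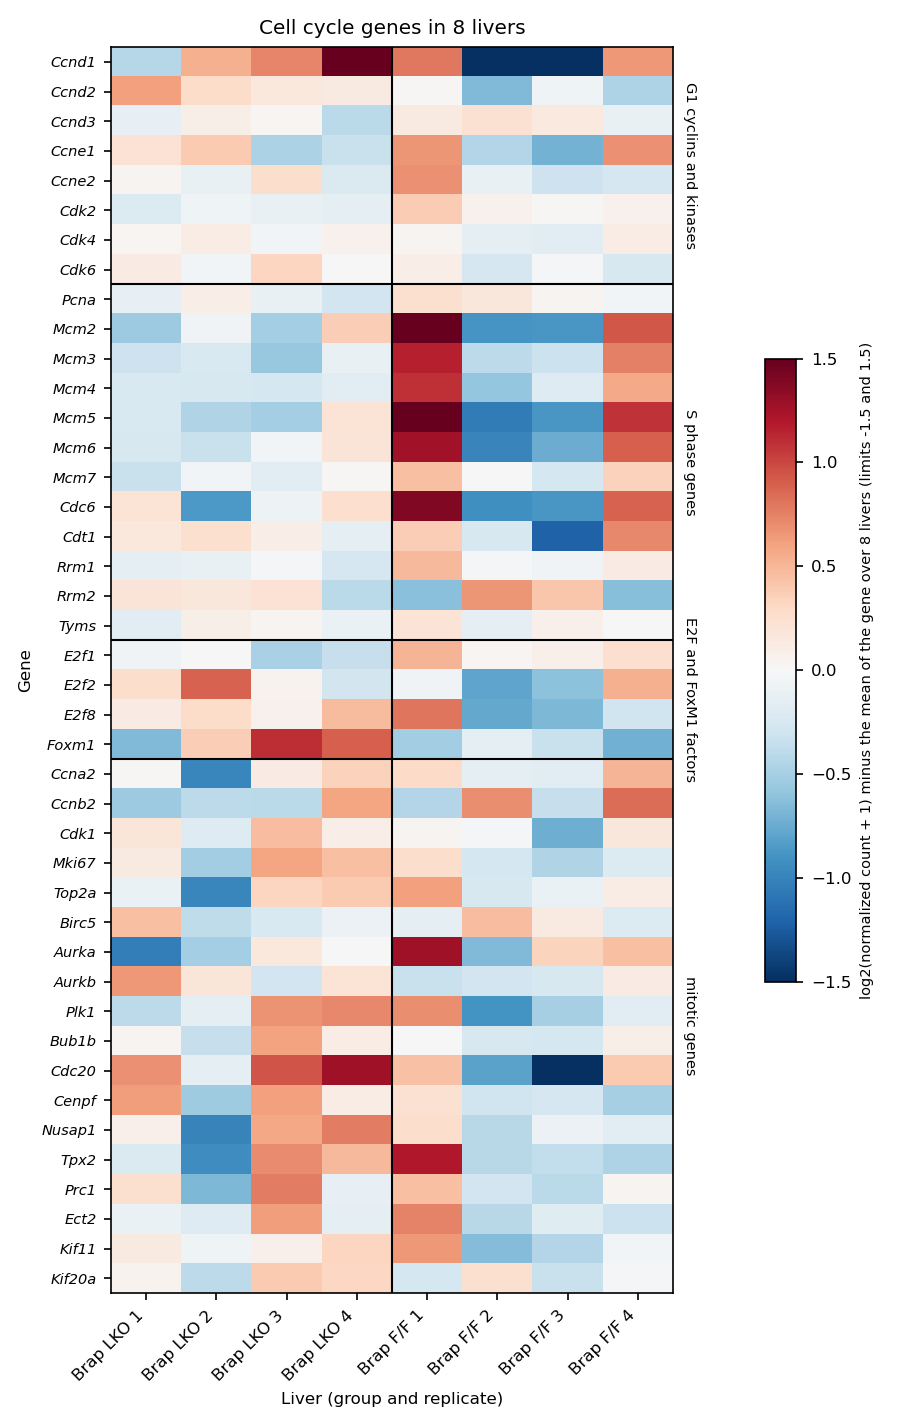
Heat map of the 42 tested genes (rows, by class) in the 8 livers (columns), with the color giving log2(normalized count + 1) minus the mean of the gene over all livers. In the Mcm rows Brap F/F replicates 1 and 4 are the highest controls, and the Brap LKO livers differ less among themselves.

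Among the D-type cyclins, Ccnd2 (chromosome 6, 127125162 to 127152193) was counted at 374, 296, 273 and 268 in Brap LKO replicates 1 to 4, and at 246, 154, 233 and 177 in Brap F/F replicates 1 to 4. Every Brap LKO liver lay above every Brap F/F liver. Its log2 fold change was 0.59 (limma, standard error 0.173, adjusted p = 0.157). An exact permutation test, run two-sided, gave p = 0.0286, the smallest that 4 livers against 4 allow. Every gene whose groups do not overlap gets this value, so it adds nothing to the lack of overlap. DESeq2 on the recovered reads gave an adjusted p of 0.0494, and the adjusted p ranged from there to 0.376 over the other settings tried. Antisense genes share 372 and 368 exon bases with Ccnd2, and the use of strand in counting is not stated.

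Ccnd1, a D-type cyclin that is induced when hepatocytes enter G1, had the widest spread of the class. It was counted at 898, 1742, 2009 and 3467 in the Brap LKO livers and at 2080, 337, 305 and 1894 in the Brap F/F livers. Brap F/F replicates 1 and 4 thus stood at the level of the Brap LKO livers, and replicates 2 and 3 stood below all other livers. The log2 fold change of 1.19 had a 95% confidence interval from -0.36 to 2.73 (limma adjusted p = 0.430). Of its exon bases, 23.4% overlap LTO1 on the opposite strand. Ccnd3 had a log2 fold change of -0.20 (limma adjusted p = 0.440), with 607 to 851 normalized counts in Brap LKO livers and 743 to 938 in the Brap F/F livers.

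Per kilobase of the transcript with the longest coding sequence, the mean level of Ccnd3 in Brap F/F livers was 408 normalized counts, that of Ccnd1 was 308.5 and that of Ccnd2 was 32.0. Ccnd3 and Ccnd1 cannot be ordered beyond their spread, since the highest and lowest Brap F/F livers differed 6.82-fold in Ccnd1. Among the kinases that the cyclins bind, the mean level per kilobase in Brap F/F livers was 422 for Cdk4, 233 for Cdk2 and 112 for Cdk6.

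Cdk2 (chromosome 10, 128697939 to 128705031), the kinase of E-type cyclins, was counted at 441, 488, 472 and 465 in Brap LKO replicates 1 to 4 and at 665, 534, 515 and 532 in Brap F/F replicates 1 to 4. All Brap LKO livers lay below all Brap F/F livers, and within the Brap LKO group the highest and lowest values differed 1.11-fold. The log2 fold change was -0.26 (limma, standard error 0.0935, adjusted p = 0.235). The same exact permutation test gave p = 0.0286. Cdk6 had a log2 fold change of 0.20 (limma adjusted p = 0.391) and overlapping groups, with 1334 to 1717 and 1154 to 1474 normalized counts. Cdk4 had 0.08, Ccne1 -0.10 and Ccne2 -0.008 as log2 fold change, and none of these passed an unadjusted p of 0.05.

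**Figure D3:**
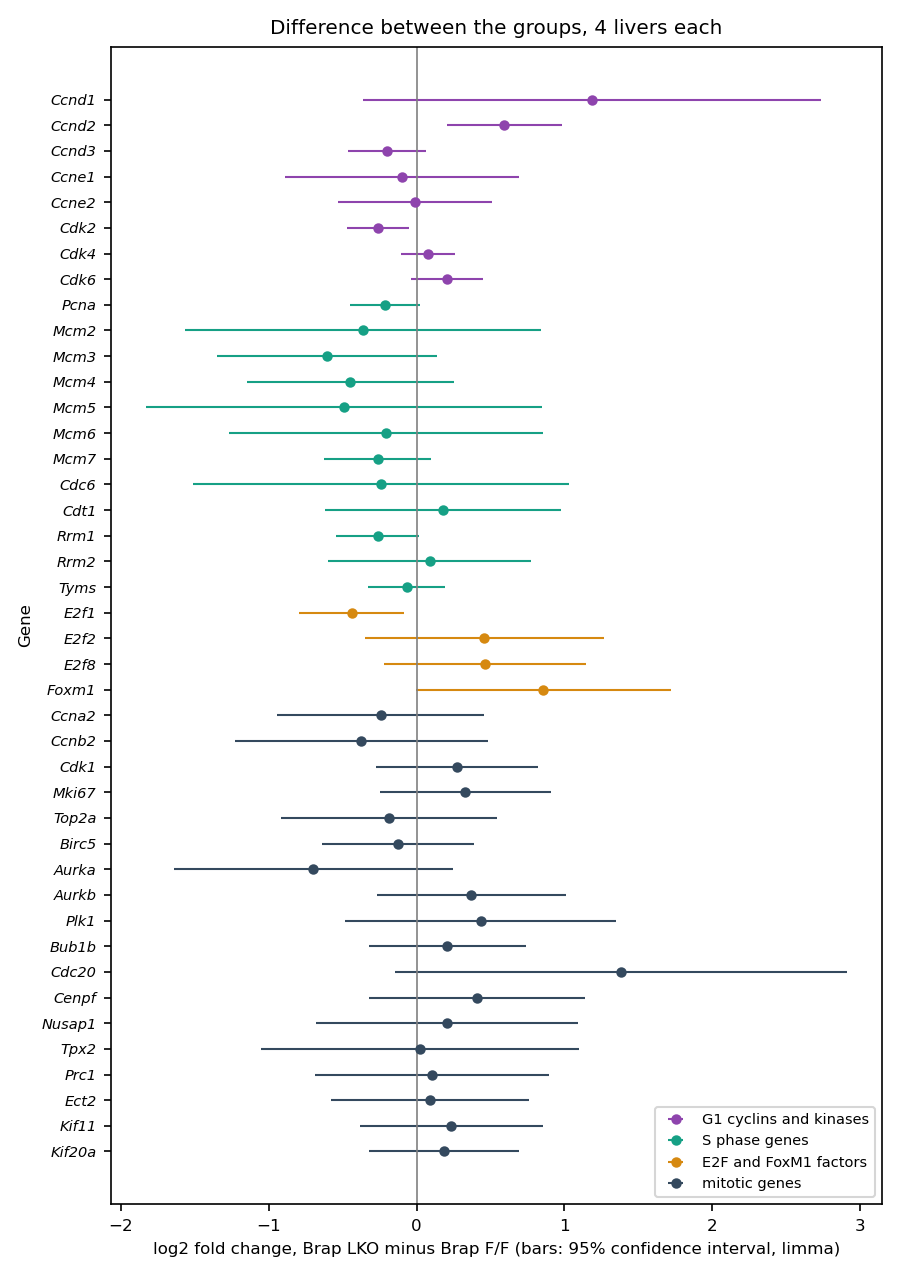
Log2 fold change of each tested gene (points, horizontal axis, Brap LKO minus Brap F/F) with its 95% confidence interval from limma (bars), colored by class. Only the intervals of Ccnd2, Cdk2 and E2f1 leave out 0, and those of Ccnd1, Cdc20 and Mcm5 are the widest.

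The 6 subunits of the replicative helicase, Mcm2 to Mcm7, had a larger spread among the controls than among the Brap LKO livers, from 1.64-fold between the highest and lowest control in Mcm7 to 7.51-fold in Mcm5. Among the Brap LKO livers it ran from 1.08-fold in Mcm4 to 1.90-fold in Mcm2. Mcm5 was counted at 72.9, 62.0, 59.7 and 98.8 in Brap LKO replicates 1 to 4 and at 305.6, 40.7, 46.2 and 181.5 in Brap F/F replicates 1 to 4. Brap F/F replicates 1 and 4 lay above all Brap LKO livers, and replicates 2 and 3 below them. Mcm2 had 83.8, 118, 86.0 and 159 in the Brap LKO livers and 361, 66.1, 66.2 and 234 in the Brap F/F livers. In Mcm4 the Brap LKO livers lay within 144 to 155, and the Brap F/F livers at 371, 116, 151 and 258. Each Mcm gene had its highest values among the controls in replicates 1 and 4 and its lowest in replicates 2 and 3. The order of the controls was described after the values were seen.

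Of the 12 S phase genes, 9 had Brap F/F replicates 1 and 4 as the highest control livers, as did 25 of the 42 tested members (59.5%) and 27.6% of all genes tested. The other 3 S phase genes were Pcna, Rrm2 and Tyms. Replicates 1 and 4 were also the highest controls in 10 of the 18 mitotic genes tested (55.6%). The lists of further replication and further mitotic genes gave 25 of 41 (61.0%) and 23 of 41 (56.1%). The standard deviation of log2 values was larger among Brap F/F than among Brap LKO livers in 11 of 12 S phase genes and in 8 of 18 mitotic genes, where 64.0% of all genes tested had the larger spread in Brap F/F livers. In 4 of the 6 Mcm genes it was at least 3 times as large, which held for 10.3% of all genes tested. The controls in question do not share an animal number series: the number of Brap F/F replicate 1 lies with those of 3 Brap LKO mice and that of replicate 4 with the other controls and Brap LKO replicate 4. With the number series as a covariate in limma, the log2 fold changes of Ccnd2, Cdk2 and E2f1 were 0.44, -0.34 and -0.58, with adjusted p = 0.376, 0.191 and 0.198.

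No Mcm gene had an unadjusted p under 0.05. The log2 fold change of Mcm3 was the largest of the 6 in size, -0.61 (standard error 0.332 and limma adjusted p = 0.403), with 98.1 to 135 normalized counts in Brap LKO livers and 111 to 328 in the Brap F/F livers. It was -0.45 for Mcm4, -0.49 for Mcm5, -0.36 for Mcm2, -0.26 for Mcm7 and -0.21 for Mcm6. Without Brap F/F replicate 1 the values were 0.09 for Mcm2, 0.04 for Mcm5 and 0.18 for Mcm6, and without replicate 4 that of Mcm6 was 0.06, so the signs of these 3 depended on a single liver. Mcm3, Mcm4 and Mcm7 lay below 0 in all 22 other settings, and without 1 liver they ran from -0.837 to -0.317, from -0.716 to -0.16 and from -0.393 to -0.155, each smallest in size without Brap F/F replicate 1.

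Cdt1, which loads the MCM helicase, and Cdc6, its partner, followed the Mcm genes among the controls. Cdt1 was counted at 206, 134, 68.3 and 264 in Brap F/F replicates 1 to 4, and at 145 to 188 in the Brap LKO livers. Cdc6 had 23.9, 4.07, 4.21 and 16.7 in the Brap F/F livers and 4.25 to 10.4 in the Brap LKO livers. Rrm2, the regulated subunit of ribonucleotide reductase, had the opposite order, with 252, 615, 519 and 250 in Brap F/F replicates 1 to 4. In the Brap LKO livers Rrm2 stood at 444, 437, 453 and 293.

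Rrm1, the large subunit of ribonucleotide reductase, was counted at 315 to 369 in the Brap LKO livers and 362 to 524 in the controls (log2 fold change -0.26, limma adjusted p = 0.341). Pcna, the sliding clamp of the DNA polymerases, had 302, 352, 304 and 269 in Brap LKO replicates 1 to 4 and 390, 369, 340 and 320 in Brap F/F replicates 1 to 4. The groups overlapped, and its log2 fold change was -0.21 (95% confidence interval -0.45 to 0.03, limma adjusted p = 0.367). The annotation holds 2 processed pseudogenes of Pcna, which could share reads with it. Tyms, thymidylate synthase, had a log2 fold change of -0.07 with 119 to 154 normalized counts over all livers.

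**Figure D4:**
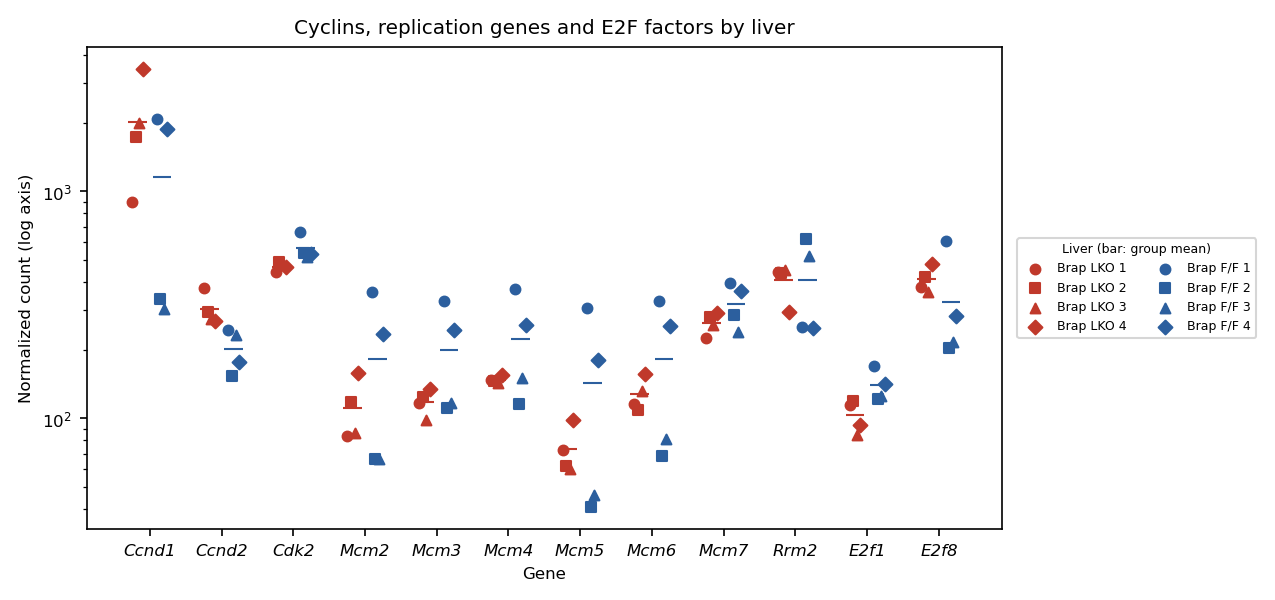
Normalized counts (log axis) of cyclins, Cdk2, replication genes and E2F factors in each liver, with 1 symbol per replicate and bars at the group means. Among the controls, the Mcm genes have replicates 1 and 4 on top and replicates 2 and 3 at the bottom, and Rrm2 has the reverse order.

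The factors that drive these waves had log2 fold changes on both sides of 0. E2f1, an activator of S phase genes, was counted at 115, 120, 84.98 and 93.6 in Brap LKO replicates 1 to 4 and at 170, 122, 126 and 142 in Brap F/F replicates 1 to 4. All Brap LKO livers lay below all Brap F/F livers, with 120 and 122 as the closest values. Its log2 fold change was -0.44 (limma, standard error 0.157, adjusted p = 0.235). The same exact permutation test gave p = 0.0286. E2f8, an atypical E2F that represses, had 362 to 480 normalized counts in Brap LKO livers and 605, 203, 218 and 282 in Brap F/F replicates 1 to 4, a log2 fold change of 0.46 (limma adjusted p = 0.482). Without Brap F/F replicate 1 that of E2f8 was 0.81 (limma adjusted p = 0.0643), without Brap F/F replicate 2 it was 0.287, and with the number series as a covariate 0.199. Foxm1, the factor of mitotic genes, was low, with 8.20, 17.8, 30.4 and 26.0 in the Brap LKO livers and 7.85 to 12.2 in the Brap F/F livers. Brap LKO replicate 1 stood within the controls and the other Brap LKO livers above them (log2 fold change 0.86, standard error 0.384 and limma adjusted p = 0.319). E2f2 had a log2 fold change of 0.46 with overlapping groups (limma adjusted p = 0.557).

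Mitotic genes were low in every liver. Per kilobase, their mean levels in Brap F/F livers ran from 0.708 normalized counts in Ccnb1, the cyclin of mitotic CDK1, to 16.6 in Ccnb2, with Birc5 apart at 53.6. The S phase genes ran from 4.78 in Cdc6 to 234 in Pcna on the same scale. Ccnb1 had 0, 4, 3 and 3 reads in Brap LKO replicates 1 to 4 and 0, 3, 1 and 3 reads in Brap F/F replicates 1 to 4. A count of 0 allows up to 3 reads at this depth, so no difference in Ccnb1 was detectable. Bub1, a kinase of the spindle checkpoint, had 2.55 to 8.09 normalized counts in Brap LKO livers and 1.02 to 6.31 in the Brap F/F livers.

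Mki67, which encodes the antigen of the Ki-67 stain, was counted at 70.1, 44.2, 96.1 and 87.4 in Brap LKO replicates 1 to 4 and at 76.4, 52.9, 46.2 and 55.0 in Brap F/F replicates 1 to 4. The lowest value of all belonged to a Brap LKO liver, replicate 2, and the highest to another, replicate 3. The log2 fold change was 0.33 (95% confidence interval -0.25 to 0.91, limma adjusted p = 0.555), and without 1 liver it ran from 0.19 (Brap LKO replicate 3 left out) to 0.558 (Brap LKO replicate 2 left out). Birc5, which encodes survivin of the chromosomal passenger complex, had 36.5 to 65.6 in the Brap LKO livers and 41.2 to 66.1 in the controls (log2 fold change -0.13, 95% confidence interval -0.64 to 0.39, limma adjusted p = 0.813).

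Of the mitotic genes, Cdc20, the activator of the anaphase-promoting complex, had the smallest p-value. It was counted at 21.9, 11.9, 26.3 and 33.3 in the Brap LKO livers and at 18.2, 7.12, 1.05 and 17.7 in the Brap F/F livers, where replicate 3 held 1 read. The log2 fold change was 1.38 (standard error 0.680 and limma adjusted p = 0.360), and the groups overlapped. Without Brap F/F replicate 3 the log2 fold change of Cdc20 was 0.682. Aurka, a kinase of the spindle poles, had 9.11 to 22.3 and 12.2 to 49.0 normalized counts in the respective groups (log2 fold change -0.70, limma adjusted p = 0.445), and its log2 fold change was -0.393 without Brap F/F replicate 1. Aurkb, the kinase of the passenger complex, had 7.08 to 14.6 and 6.84 to 9.81 (log2 fold change 0.37, limma adjusted p = 0.547). The remaining mitotic genes tested had log2 fold changes from -0.37 (Ccnb2) to 0.43 (Plk1).

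Brap LKO replicate 2 was the lowest Brap LKO liver in 14 of the 18 mitotic genes tested, a count made after the values were seen. In Top2a, the topoisomerase that untangles chromosomes, it stood at 17.8 beside 33.7, 45.5 and 47.8 in the other Brap LKO livers. In Tpx2, a spindle assembly factor, Brap F/F replicate 1 stood at 33.1 and the other controls at 9.81 to 10.5. Without Brap F/F replicate 1, 27 of the 42 tested members lay above 0 and 15 below, where 22 and 20 did with all livers.

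Other genes of the pathway were taken from lists by role. Of 41 further replication genes tested (origin recognition, GINS, polymerases, clamp loader, nucleotide supply and others), 0 passed the threshold with limma or edgeR and 1 with DESeq2, where 4.07% of all genes did with DESeq2. There were 3 at an unadjusted p under 0.05 with limma, each with a value below 0, against 15.8% of all genes in either direction and 6.59% below 0. Their median log2 fold change was -0.10. Cdc45, which joins the MCM helicase to form the active helicase, was that gene. It was counted at 39.2, 27.2, 49.6 and 23.9 in Brap LKO replicates 1 to 4 and at 86.6, 65.1, 64.1 and 52.0 in Brap F/F replicates 1 to 4. The groups did not overlap, and the log2 fold change was -0.95, with a standard error of 0.257 (adjusted p = 0.128 by limma and 0.0300 by DESeq2). Gins4 (-0.39, limma adjusted p = 0.276) and Pold2 (-0.29, limma adjusted p = 0.299) were the others. Orc1, the largest origin recognition subunit, had too few reads to be tested, with 0, 1, 0 and 0 in the Brap LKO livers and 8, 1, 1 and 3 in the Brap F/F livers, and it is named after its values were seen.

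Of 41 further mitotic genes tested, 0 passed the threshold with limma, edgeR or DESeq2, and 1 had an unadjusted p under 0.05 with limma. The median log2 fold change was -0.11, with 14 genes above 0 and 27 below, whereas the mitotic members had a median of 0.20. The log2 fold changes with the smallest p-values were -0.40 for Spc25, a kinetochore protein, -0.32 for Nek2, a centrosome kinase, and 0.67 for Fam83d, a spindle protein. Their adjusted p-values were 0.309, 0.386 and 0.402 from limma.

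The CDK inhibitors, brakes of the cycle, held the only gene of these pathway lists that passed the threshold with limma. Of the 7 tested, 1 did (0.769% of all genes), and 3 had an unadjusted p under 0.05 (15.8% of all genes, 9.23% higher), each of them with a value above 0 and each among the INK4 inhibitors of CDK4 and CDK6. Cdkn2c (p18, chromosome 4, 109660876 to 109667189) was counted at 244, 240, 269 and 223 in Brap LKO replicates 1 to 4 and at 129, 67.1, 59.9 and 128 in Brap F/F replicates 1 to 4. Every Brap LKO liver lay above every Brap F/F liver. Of the 7 CDK inhibitors, only Cdkn2c had replicates 1 and 4 as the highest controls, as the Mcm genes did (27.6% of all genes tested). Cdkn2c rose by 1.42 on the log2 scale (limma, standard error 0.253, 95% confidence interval 0.85 to 1.99, adjusted p = 0.0446). The same exact permutation test gave p = 0.0286. Of 22 other settings, 11 kept that call (the adjusted p ran from 2.16e-05 to 0.15), with log2 fold changes from 1.21 to 1.61. The call was lost when any 1 Brap LKO liver was left out, with adjusted p from 0.0978 without replicate 2 to 0.15 without replicate 1. It was also lost without Brap F/F replicate 2 (0.107) or replicate 3 (0.0723), with the replicate block (0.0684) and with the number series as a covariate (0.106).

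Cdkn2a, which encodes p16 and ARF, had 15.5, 11.0, 6.07 and 5.20 in the Brap LKO livers and 1.14, 4.07, 4.21 and 0.981 in the Brap F/F livers, which held 1, 4, 4 and 1 reads. The groups did not overlap (log2 fold change 1.57, standard error 0.486 and limma adjusted p = 0.178). Its neighbor Cdkn2b (p15) had 6.80 to 19.2 and 0.981 to 7.12 in the respective groups (log2 fold change 1.45, limma adjusted p = 0.215). Cdkn2d, the remaining INK4 gene, had a log2 fold change of -0.17 (limma adjusted p = 0.790).

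Cdkn1a (p21), named after its values were seen, mirrored the Mcm genes among the controls. It was counted at 196, 2085, 1052 and 124 in Brap F/F replicates 1 to 4, and at 70.1, 197, 195 and 310 in Brap LKO replicates 1 to 4. The controls with the lowest Mcm values thus held the highest Cdkn1a values of all 8 livers. This order did not hold among the Brap LKO livers. There the mean deviation of the 6 Mcm genes was -0.314, -0.225, -0.342 and 0.0882 in replicates 1 to 4. Replicate 4 thus had the highest value of that group in both. The log2 fold change of Cdkn1a was -1.49 (standard error 0.855 and limma adjusted p = 0.424). Cdkn1b (p27) and Cdkn1c (p57) had log2 fold changes of 0.16 and 0.13 (limma adjusted p = 0.415 and 0.882).

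**Figure D5:**
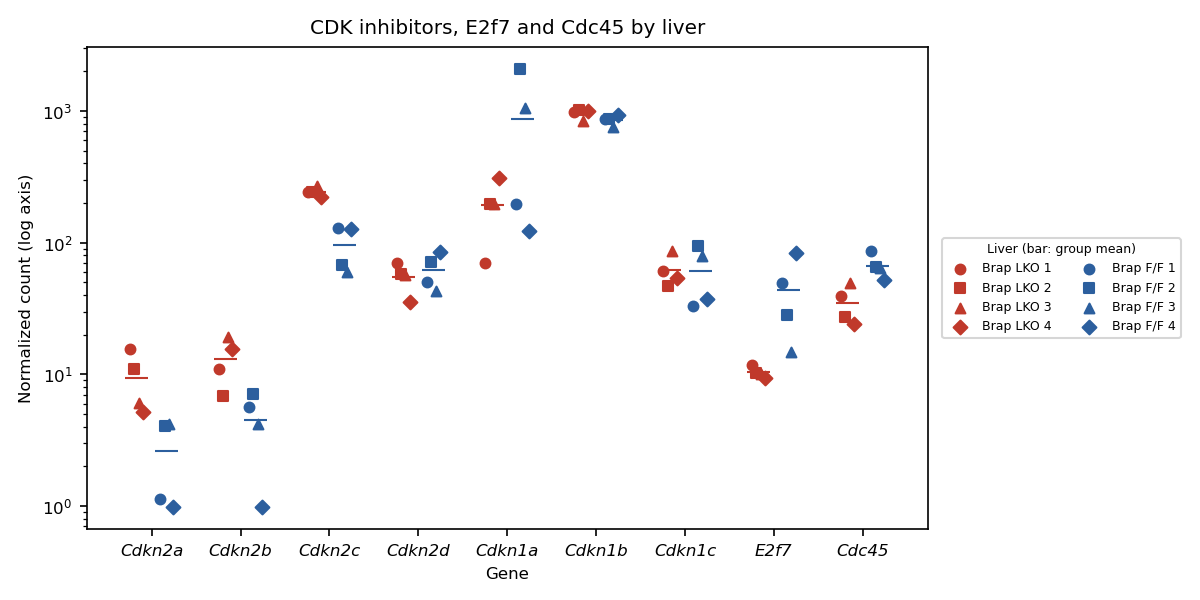
Normalized counts (log axis) of the CDK inhibitors, E2f7 and Cdc45 in each liver, with 1 symbol per replicate and bars at the group means. The groups are apart in Cdkn2a, Cdkn2c, E2f7 and Cdc45, and Cdkn1a is highest in Brap F/F replicates 2 and 3.

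Of the 16 pocket protein, DREAM complex and further E2F genes, 0 passed the threshold with limma or edgeR, 1 did with DESeq2, and 1 had an unadjusted p under 0.05 with limma. That gene was E2f7, the partner of E2f8. It was counted at 11.8, 10.2, 10.1 and 9.36 in Brap LKO replicates 1 to 4 and at 49.0, 28.5, 14.7 and 83.4 in Brap F/F replicates 1 to 4. All Brap LKO livers lay below all controls, and they differed far less among themselves than the controls did. The highest controls were replicates 1 and 4, as in 7 of the 16 genes of this list (43.8%) and 27.6% of all genes tested. The log2 fold change was -1.72, with a standard error of 0.453 (adjusted p = 0.119 by limma and 0.00348 by DESeq2). Lin54 (-0.15) and Lin9 (-0.18), subunits of the MuvB core, had adjusted p-values of 0.372 and 0.452 from limma.

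Of the 15 CDK phosphatase, Wee1 kinase, CDK-activating kinase and ubiquitin ligase genes, 0 passed the threshold with limma, edgeR or DESeq2, and 1 had an unadjusted p under 0.05. Cdc25b, a phosphatase that activates CDK1, was counted at 41.9, 41.6, 34.4 and 52.0 in the Brap LKO livers and at 22.8, 31.5, 27.3 and 27.5 in Brap F/F livers. The groups did not overlap (log2 fold change 0.61, standard error 0.188 and limma adjusted p = 0.173). Fzr1 (-0.15), an activator of the anaphase-promoting complex, and Mnat1 (0.16), a subunit of the CDK-activating kinase, had adjusted p-values of 0.398 and 0.453 from limma.

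Of the markers of other cell types of the lobe, 2 passed the threshold. Of all genes tested, 0.769% passed it, and 15.8% had an unadjusted p under 0.05 with limma (9.23% higher and 6.59% lower). The median log2 fold change was 0.92 over the 8 cholangiocyte markers tested (all above 0, 6 at an unadjusted p under 0.05 and 1, Cftr, past the threshold), 0.71 over 10 stellate cell and fibroblast markers (9 above 0, 6 at an unadjusted p under 0.05 and 1, Pdgfrb, past the threshold) and 0.47 over 12 macrophage and monocyte markers (11 above 0, 0 past the threshold, 3 at an unadjusted p under 0.05). It was 0.66 over 10 T and NK cell markers, 0.47 over 8 B cell markers, 0.19 over 9 endothelial markers, -0.06 over 7 red blood cell markers and -0.38 over 10 hepatocyte markers, none of which passed the threshold with limma, with 1, 3, 0, 0 and 1 at an unadjusted p under 0.05. Summed normalized counts were 1942 to 3815 in Brap LKO and 1144 to 2147 in Brap F/F livers for cholangiocytes, 7781 to 12180 and 5078 to 8875 for stellate cells, and 6414 to 11740 and 6481 to 9061 for macrophages. They were 154.8 to 247.5 and 107 to 201 for T and NK cells, 372 to 591 and 235.5 to 612 for B cells, 8558 to 11940 and 7344 to 10730 for endothelium, and 3908 to 4540 and 4363 to 4843 for red blood cells. No marker found in the table was at 0 in all livers. Their part in the values of Cdkn2c and of the other genes was not tested. Among the controls, the stellate sum was 5078, 8313, 8875 and 6465 and the endothelial sum 7344, 9775, 10730 and 7811 in replicates 1 to 4, lower in the livers with the higher Mcm values. The stellate list was mixed. Dcn (2022, 3968, 3643 and 2609), Reln (974, 2379, 2909 and 1311) and Pdgfra were lower in replicates 1 and 4. Higher there were Col1a1 (244, 142, 162 and 377), Col3a1 (545, 328.5, 518 and 775) and Acta2 (75.25, 29.49, 35.74 and 70.65). Lrat, Des, Col1a2 and Pdgfrb were neither. Also lower in replicates 1 and 4 were the sums of B cells (242, 488, 612 and 235.5), red blood cells (4363, 4713, 4843 and 4468) and hepatocytes (2946000, 4521000, 3746000 and 3404000). Of the B cell markers, Ighm (104, 287, 495 and 89.3), Jchain and Cd79a had this order and the others did not. The largest red blood cell marker, Alas2 (3459, 3308, 3679 and 3791), did not have it, and the globin genes did. Alb (1934000, 3058000, 2501000 and 2274000), Ttr, Tat, Ass1, Hnf4a and Cyp2e1 had it, and Apoa1, Pck1 and Cps1 did not. Serpina1a (24980, 20910, 17800 and 26410) had the reverse. The sums of cholangiocytes (1645, 1293, 1144 and 2147) and of T and NK cells (201, 121, 107 and 144) were higher in replicates 1 and 4, though not every marker was. Those of macrophages (6941, 7171, 6481 and 9061) were neither.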

How the data were processed

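Bulk RNA sequencing of 8 livers was analysed, 4 per group, each liver from 1 mouse. Per the labels and methods, the authors made mRNA libraries (NuGEN Universal Plus mRNA), read them from a single end and aligned the reads to mm10 with STAR 2.6.0c. How reads were counted, on which annotation and whether by strand is not given in the sources used here. The signal deposited by the authors is the number of reads on each gene scaled by the DESeq2 size factor of that liver. All values (100%) were whole multiples of the smallest value above 0 in their liver (tolerance 0.001), so division gave back the reads. The authors further deposited their own comparison of the groups (fold changes and p-values), which was not used. All 8 value columns were mapped (0 left out).

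Groups were compared with limma 3.58.1 in R 4.3.3 (mean-variance trend) on log2(normalized count + 1), without covariates, for the 15352 genes whose mean was 5 or more, with Benjamini-Hochberg adjustment over all of them and a threshold of 0.05. For single genes an exact permutation test (two-sided, 70 arrangements) was added. Count tests with edgeR 4.0.16 and DESeq2 1.42.0 on the recovered reads were alternatives, as were other pseudocounts, filters, scalings and weights, a replicate block, the animal number series as a covariate, and leaving out each liver. The scripts were tested on simulated data. Positions, lengths and exon overlaps came from GENCODE M21 on the same build.

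The members and lists were chosen with earlier results of these data known. Genes named with values are those past the threshold, the 3 of each class or list with the smallest p, Mki67, Pcna, Birc5 and Ccnd1. Further genes with printed values, such as the remaining Mcm genes, Cdc6, Cdt1, Rrm2, Tyms, Ccnb1, Bub1, Top2a, Tpx2 and the other CDK inhibitors, were chosen after their values were seen.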

Additional observations from a re-analysis of the deposited data

Results flagged for a closer look

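In 126 sets of 4 livers (a gene in a group), 9 held a liver whose distance to its nearest neighbor took up most of the whole range (Dixon's test at the 95% level), where chance gives 6.3. In Brap F/F replicate 1, Cdk2 stood at 664.7 normalized counts (at most 533.9 in the other controls), Ccne2 at 109.5 (at most 63.05), Tpx2 at 33.06 (at most 10.51) and Ect2 at 62.71 (at most 32.59). In Brap LKO replicate 3, Ect2 stood at 57.67 (at most 34.61 in the others of its group) and Cdkn1b at 835.7 (at least 982.8). In Brap LKO replicate 4, Rrm2 was at 293.3 (at least 436.6) and Ccnb2 at 31.2 (at most 15.29). For Ccnb1, Brap LKO replicate 1 had 0 and its group otherwise 3.035 or more, which is 3 reads or more. Only 4 of the livers are concerned, and the cause was not tested.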

How the results depend on the processing

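With 0 to 4 reads per liver, as in Ccnb1, no difference was detectable, and in the Mcm genes the spread of the controls sets the limit. No member was called under any of the 22 other settings except Ccnd2 by DESeq2 (1 higher). The members at an unadjusted p under 0.05 numbered 3 and became 6 after quantile normalization, 5 with arrayWeights, 5 with the replicate block, 7 with the animal number series as a covariate and 5 with DESeq2, and from 2 to 7 without 1 liver. Of the 15352 genes tested, 2429 passed in the main setting and 2136, 3141, 2589, 1943 and 2437 in those settings, in the same order. Without 1 liver, 1640 to 2958 did. The median of the factors was 0.46 and became 0.0134 with a minimum mean of 20, which drops genes, and 0.215 with the series. All genes higher numbered 102 and became 62 (quantile normalization), 459 (same total), 185 (arrayWeights) and 455 (DESeq2), and 11 (without Brap LKO replicate 1) to 178 (without Brap F/F replicate 4) without 1 liver. All genes lower numbered 16 and became 9 (minimum mean of 20), 39 (arrayWeights) and 170 (DESeq2), and 4 (without Brap F/F replicate 2) to 54 (without Brap F/F replicate 4) without 1 liver. CDK inhibitors called numbered 1 and became 0 with a minimum mean of 20, quantile normalization, no trend, the replicate block or the series, and 0 to 1 without 1 liver. DESeq2 called 1 further S phase gene and 1 pocket protein or E2F gene, where limma called 0. With the same total per liver, the median of all genes moved from -0.01 to 0.15, and Birc5 (0.0281), Lin54 (0.00386) and Fzr1 (0.0112) changed sign. Mcm6 was 0.0625 with arrayWeights. Without 1 liver, Birc5 ranged from -0.30 to 0.00637, Mcm2 from -0.72 to 0.094, Mcm5 from -0.92 to 0.0354 and Mcm6 from -0.57 to 0.18. The cause of these moves was not tested. The labels do not say whether replicate numbers mark a litter or batch, and same-numbered livers were not treated as pairs. Their deviations from the group means correlated between -0.13 and 0.29, and those of differently numbered livers between -0.293 and 0.199. These ranges overlap and the highest value, 0.292, was that of the livers numbered 4, so the check does not settle whether livers are paired. Among the genes of the members and pathway lists named here, the replicate block changed only the call of Cdkn2c, and the markers were not compared under it.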
